A study of Homo sapiens with 2 samples.

Results

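TFAP2A, TFAP2C, GRHL2, GRHL3 and ZNF750 are transcription factor genes of epithelial cells, and their chromatin interactions were read from H3K27ac HiChIP of KYSE180, an established cell line of esophageal squamous cell carcinoma (ESCC). HiChIP ligates DNA ends that lie close together in the nucleus and enriches them with an antibody, here against H3K27ac, a histone acetylation found at active promoters and enhancers. The cells had received a control siRNA that targets no gene. There were 2 libraries of this 1 condition, and the authors deposited 1 list of loops for both. The list holds no expression, so the label of the cell line could not be set against marker genes. The methods describe the loop calling as aimed at loops associated with the transcription factor p63, and how far the list is limited to these is not given in the sources used here, so few listed loops at a gene need not mean few contacts. Values have no spread between replicates, no test across samples was possible, and the intervals given are 95% intervals for counting error only (exact Poisson for contacts, Wilson for shares).

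Loops were taken where a bin of 2 kb overlapped the TFAP2A interval from 10395000 to 10425000 on chromosome 6 (30 kb) or lay within 10 kb of the 5′ end of another gene. These 5′ ends were at 55204358 on chromosome 20 for TFAP2C, at 102504668 on chromosome 8 for GRHL2, at 24645812 on chromosome 1 for GRHL3 and at 80798454 on chromosome 17 for ZNF750 (hg19 throughout). This gave 44 of the 31950 loops of the list, or 0.138%. The genes lie on 5 different chromosomes and the list joins no different chromosomes, so a loop from one of these genes to another could not be listed.

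TFAP2A and TFAP2C encode the AP-2α and AP-2γ proteins, which bind GC-rich DNA as dimers and act in the development of ectoderm and skin. GRHL2 and GRHL3 encode factors of the grainyhead family, of which GRHL2 maintains genes of epithelial junctions and GRHL3 acts in the formation of the epidermal barrier. ZNF750 encodes a zinc finger factor of terminal epidermal differentiation whose gene is a known target of p63, and it is recurrently mutated in ESCC. Enhancers act on such genes through contacts of distant acetylated DNA with the promoter, and loops in H3K27ac HiChIP report contacts of this kind without showing whether they act on the gene.

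GRHL2 was not looked up in the RefSeq promoter table (GRCh38.p14). Of the other genes, that table held TFAP2A and GRHL3, each with 2 windows of 300 bases, 250 before to 50 after a 5′ end. They are printed because TFAP2A had the most loops of the 5 genes and because both genes start at more than 1 place. Capitals mark each match to the spacing pattern of a p63 site and, in the second GRHL3 window, the AP-2 pattern GCCNNNGGC at bases 201 to 209.
TFAP2A window 1, chr6:10419610-10419909, minus strand: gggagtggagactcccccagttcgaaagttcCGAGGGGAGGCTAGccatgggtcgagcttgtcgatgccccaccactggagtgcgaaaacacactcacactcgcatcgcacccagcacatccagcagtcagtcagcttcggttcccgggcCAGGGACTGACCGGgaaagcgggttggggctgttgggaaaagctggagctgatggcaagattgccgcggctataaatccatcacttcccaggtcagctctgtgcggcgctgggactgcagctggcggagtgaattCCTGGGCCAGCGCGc
TFAP2A window 2, chr6:10412342-10412641, minus strand: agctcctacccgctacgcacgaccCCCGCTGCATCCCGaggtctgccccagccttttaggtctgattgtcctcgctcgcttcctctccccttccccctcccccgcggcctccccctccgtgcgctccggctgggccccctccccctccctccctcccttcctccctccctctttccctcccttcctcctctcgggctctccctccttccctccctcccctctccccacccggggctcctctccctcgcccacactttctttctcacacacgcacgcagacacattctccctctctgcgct
GRHL3 window 1, chr1:24319107-24319406, plus strand: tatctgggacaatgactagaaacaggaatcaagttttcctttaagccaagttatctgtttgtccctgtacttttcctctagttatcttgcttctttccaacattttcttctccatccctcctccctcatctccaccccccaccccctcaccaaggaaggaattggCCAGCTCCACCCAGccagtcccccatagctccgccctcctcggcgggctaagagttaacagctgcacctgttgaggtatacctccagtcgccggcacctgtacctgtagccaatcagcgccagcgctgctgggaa
GRHL3 window 2, chr1:24322790-24323089, plus strand: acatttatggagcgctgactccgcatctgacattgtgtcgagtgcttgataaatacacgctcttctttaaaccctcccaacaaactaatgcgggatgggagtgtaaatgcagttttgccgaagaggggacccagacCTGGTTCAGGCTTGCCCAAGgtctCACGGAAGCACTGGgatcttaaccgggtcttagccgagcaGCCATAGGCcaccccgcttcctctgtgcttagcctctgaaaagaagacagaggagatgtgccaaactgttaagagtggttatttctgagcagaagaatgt
Both patterns read the same on either strand. The p63 spacing pattern matched 3 times and 1 time in the TFAP2A windows and 1 time and 3 times in those of GRHL3, and in GRHL3 window 2 the matches at bases 137 to 150 and 143 to 156 overlap. It occurs in 74.0% of all 35116 promoter windows, so most windows hold it. The AP-2 pattern occurs in 23.2% of them and was absent from the other 3 printed windows. The grainyhead pattern AACCGGTT, which 0.134% of all windows hold, was in none of the 4. GC content was 61.7 and 68.0% in the TFAP2A windows and 53.0% in the first and 50% in the second GRHL3 window, against a median of 58.7% (interquartile range 47.0 to 68.0%) over all windows. These matches are letters in reference sequence on another build than the list, and no bound factor was measured here.

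The 5 genes differed widely in the number of loops. TFAP2A had 25 loops with 26 contacts (interval 17.0 to 38.1), and GRHL2 had 13 loops with 13 contacts (6.92 to 22.2). TFAP2C had 3 loops with 3 contacts (0.619 to 8.77). GRHL3 had 2 loops with 2 contacts (0.242 to 7.22), and ZNF750 had 1 loop with 1 contact (0.0253 to 5.57). In this order each gene's interval overlapped that of the next, which does not show that their counts were alike, and differences between neighbours in the order were not tested. The TFAP2A interval lay above those of TFAP2C, GRHL3 and ZNF750, and that of GRHL2 lay above that of ZNF750 only. The TFAP2A interval of the genome was wider than the others, and over its central 20 kb there were 22 loops with 23 contacts (14.6 to 34.5).

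**Figure D1:**
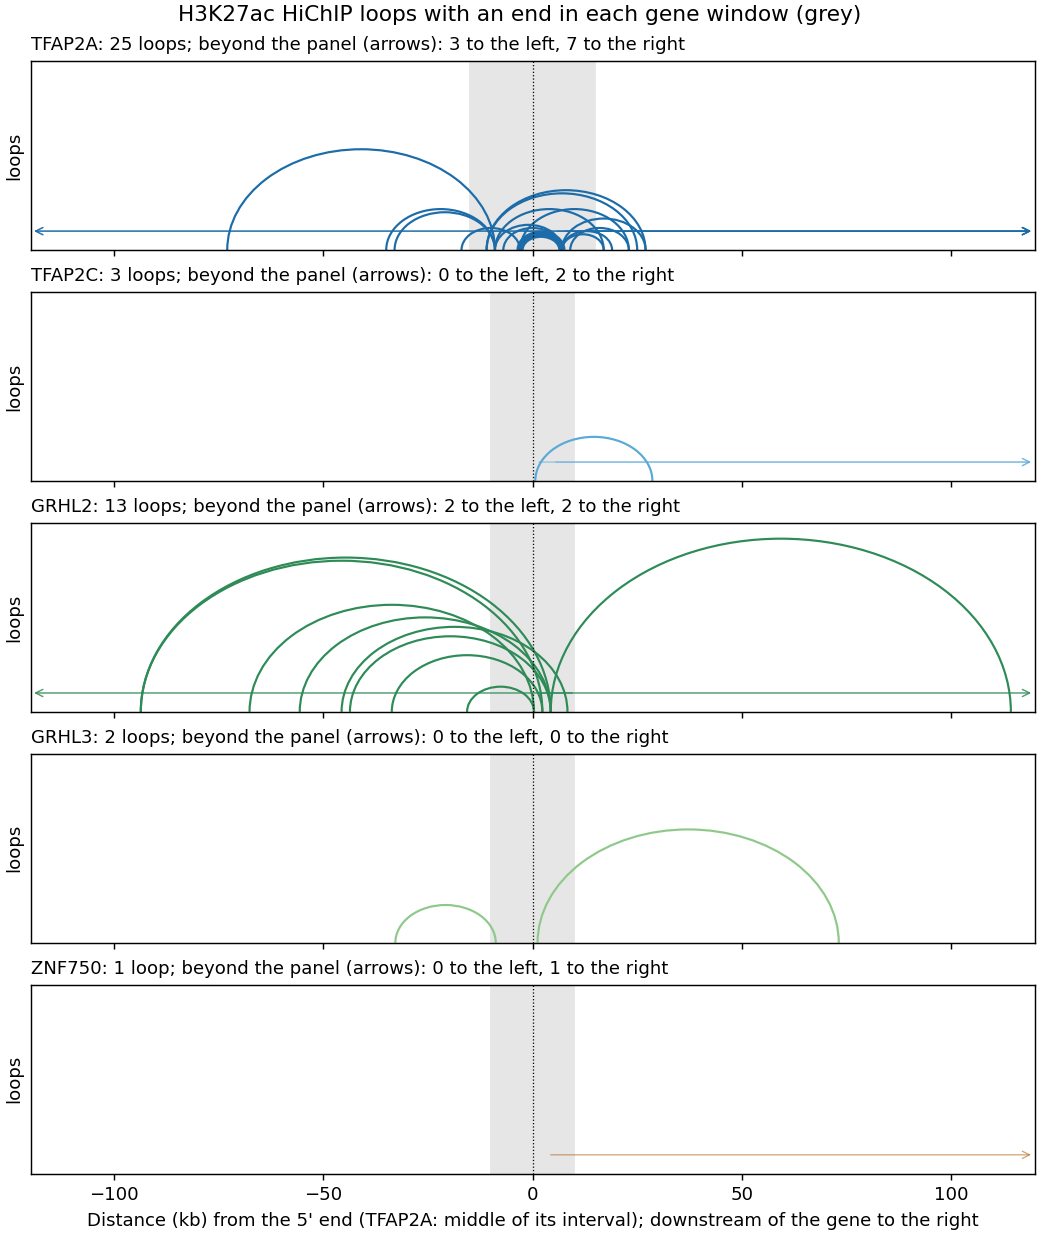
Loops with an end in each gene window, drawn as arcs against the distance in kb from the 5′ end (for TFAP2A from the middle of its interval), with downstream of the gene to the right. Grey bands are the windows, the thick arc is the loop with 2 contacts, and arrows stand for loops that end beyond 120 kb. At TFAP2A 15 of 25 loops span at most 100 kb, at GRHL2 10 of 13 run upstream, and TFAP2C, GRHL3 and ZNF750 have 3, 2 and 1.

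Set against the list, TFAP2A and GRHL2 lay among its more connected windows and the other genes did not. A window of the width used for TFAP2A touches 16 bins, and 1.06% of all such windows with at least 1 loop had 25 loops or more. For windows that touch 11 bins, as for the other genes, 3.53% had at least the 13 loops of GRHL2, 40.7% at least the 3 of TFAP2C, 61.1% at least the 2 of GRHL3 and 100% at least the 1 of ZNF750. The central 20 kb of TFAP2A, which also touch 11 bins, were matched or exceeded by 0.944%. The median window of either width had 2 loops, so TFAP2C, GRHL3 and ZNF750 lay within 1 loop of it. Windows overlap each other and need not hold a promoter, so these shares describe the list and are no test.

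**Figure D2:**
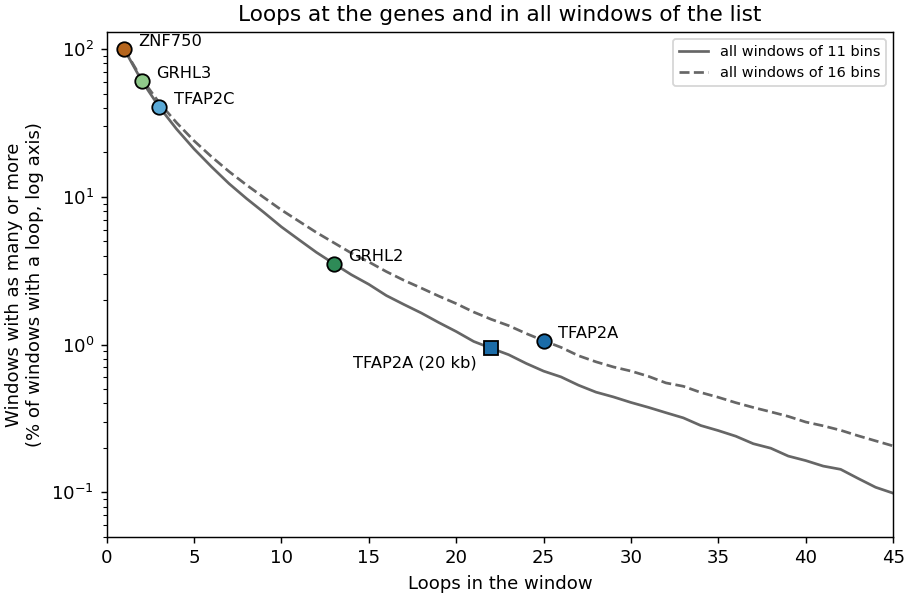
Share of all windows with at least a given number of loops (y, percent of windows with a loop, log axis) against that number (x), for windows that touch 11 bins (solid line) and 16 bins (dashed line). Points are the 5 genes, and the square is the central 20 kb of TFAP2A. TFAP2A lies near 1% and GRHL2 at 3.53%, while the other 3 genes lie at 40.7% or more.

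At TFAP2A, 10 of the 16 bins that the interval touches carried a loop. The bin from 10402001 to 10404000 had the most, 8 loops. It was followed by the bins from 10412001 to 10414000 and from 10418001 to 10420000 with 5 each and the bin from 10420001 to 10422000 with 3. TFAP2A lies on the minus strand, so its upstream side has the higher positions, and these bins stand in the lower, middle and upper parts of the interval. The other 6 bins had 1 or 2 loops each. RefSeq gives TFAP2A 5′ ends that are 7268 bases apart. The bins from 10412001 and 10418001 could hold a pair of positions with that spacing. Other pairs of bins could too, such as those from 10412001 and 10420001, so the spacing does not place the 5′ ends. The 5′ ends were not placed on the list because the annotation used here is on GRCh38, and the antisense genes TFAP2A-AS1 and TFAP2A-AS2 overlap TFAP2A, so a bin cannot be given to 1 of these genes.

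The only loop of the 5 genes with more than 1 contact lay inside TFAP2A. It joined the bin from 10402001 to 10404000 with that from 10412001 to 10414000, spanned 10 kb and had 2 contacts. The same bin had 2 further loops inside the interval, to the bins from 10416001 and from 10418001, with spans of 14 and 16 kb and 1 contact each. The bin with the most loops was thus joined to both bins with 5. Over the 5 genes, 1 of 44 loops (2.27%, interval 0.402 to 11.8%) had 2 or more contacts, beside 3.36% of all loops in the list, a share within that interval. The other 43 rested on 1 contact each.

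Outside the interval, TFAP2A had 15 loops to the downstream side and 7 to the upstream side. Of the downstream loops, 8 ended in a stretch of 12 kb from 10382001 to 10394000, beyond the end of the interval, in 5 bins. These 8 loops left from 5 bins of the interval: 3 from the bin at 10402001, 2 from that at 10420001 and 1 each from those at 10400001, 10412001 and 10418001. The bins at 10382001, 10386001 and 10392001 each received 2 of them. No other loop of the list touched this stretch. Since its edges were drawn around these partner bins, this is a description only. The other stretch drawn in that way, of 4 kb from 10442001 to 10446000 on the upstream side, had 3 loops, of which 2 ended at TFAP2A.

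The short upstream loops of TFAP2A were fewer. The bin at 10412001 was joined to that at 10426001 over 14 kb, and the bin at 10418001 to those at 10442001, 10444001 and 10482001 over 24, 26 and 64 kb. The nearest protein-coding gene on that side by order in RefSeq is GCNT2, a glycosyltransferase gene, and on the downstream side it is SLC35B3. No partner bin was assigned to a gene, since gene positions on hg19 were not at hand.

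TFAP2A also held most of the long loops of the set. It had 5 loops of 1 Mb or more, and GRHL2 had 1. Of the TFAP2A loops, 4 ran downstream, over 2906, 3210, 3312 and 3708 kb, to bins between 6696001 and 7508000, and 1 ran upstream over 2162 kb. All 5 had 1 contact. Their partner bins had 0 to 3 other loops in the list, and the bin from 7108001 to 7110000 had a coverage of 66. Over the 5 genes, 6 of 44 loops (13.6%, interval 6.40 to 26.7%) spanned 1 Mb or more, beside 11.7% of all loops. The share of all loops lay within that interval, which is too wide to show that the shares were alike.

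**Figure D3:**
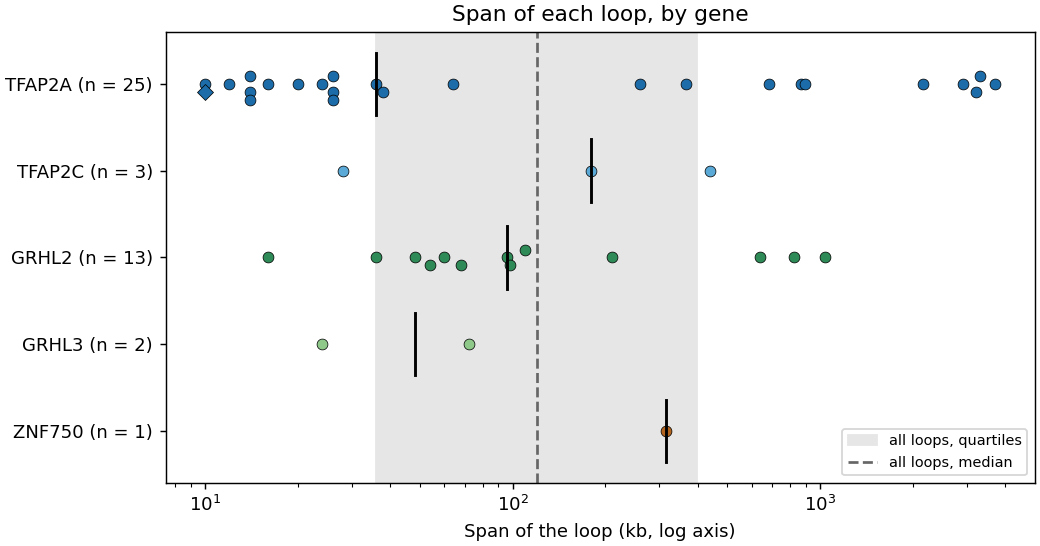
Span of each loop (x, kb, log axis) by gene. Points are loops, the diamond is the loop with 2 contacts, black bars are medians, and the grey band and dashed line are the quartiles and median of all loops. The TFAP2A loops fall into spans of 10 to 64 kb and of 260 to 3708 kb with none between, whereas those of GRHL2 lie mostly from 36 to 110 kb.

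At GRHL2, 10 of 13 loops ran upstream, most of them from bins beyond the 5′ end. The bin from 102504001 to 102506000 holds the 5′ end and had 4 loops, as did the bin from 102508001 to 102510000 in the start of the gene. The loops of the 5′ end bin were 2 upstream and 2 downstream, and those of the bins after it 8 upstream and 1 downstream. The bins at 102506001, 102512001 and 102514001 had 2, 1 and 2. GRHL2 lies on the plus strand, and every bin of the window with a loop lay at or downstream of the 5′ end, with none in the 10 kb before it. Bins with 4 or more loops thus numbered 2 at GRHL2, 3 at TFAP2A and 0 at the other genes, and in the list 9.33% of bins with a loop have as many.

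The upstream loops of GRHL2 include 8 with spans of 16 to 98 kb, which ended in 7 bins from 102410001 to 102490000, between 15.7 and 93.7 kb before the 5′ end. The farthest of these bins, at 102410001, was joined to the adjacent bins at 102506001 and 102508001, over 96 and 98 kb. The nearest, at 102488001, was joined to the bin of the 5′ end. In these 80 kb, 15 bins had a loop and 33 loops had an end, of which 7 had both ends there. Drawn around partner bins as at TFAP2A, with gaps of up to 10 kb, 1 stretch of 36 kb from 102436001 to 102472000 had 20 loops. Of these, 5 ended at GRHL2, 4 had both ends in the stretch and 11 ended elsewhere.

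The remaining GRHL2 loops were longer. Upstream, the bin at 102514001 was joined to those at 101878001 and 101694001 over 636 and 820 kb. The midpoint of that bin lies outside the window, and without it GRHL2 had 11 loops. Downstream, the bin at 102508001 was joined to that at 102618001 over 110 kb, and the bin of the 5′ end to those at 102714001 and 103540001 over 210 and 1036 kb. The downstream neighbour by order in RefSeq is NCALD and the upstream one is ZNF706, and the divergent noncoding gene GRHL2-DT overlaps GRHL2.

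**Figure D4:**
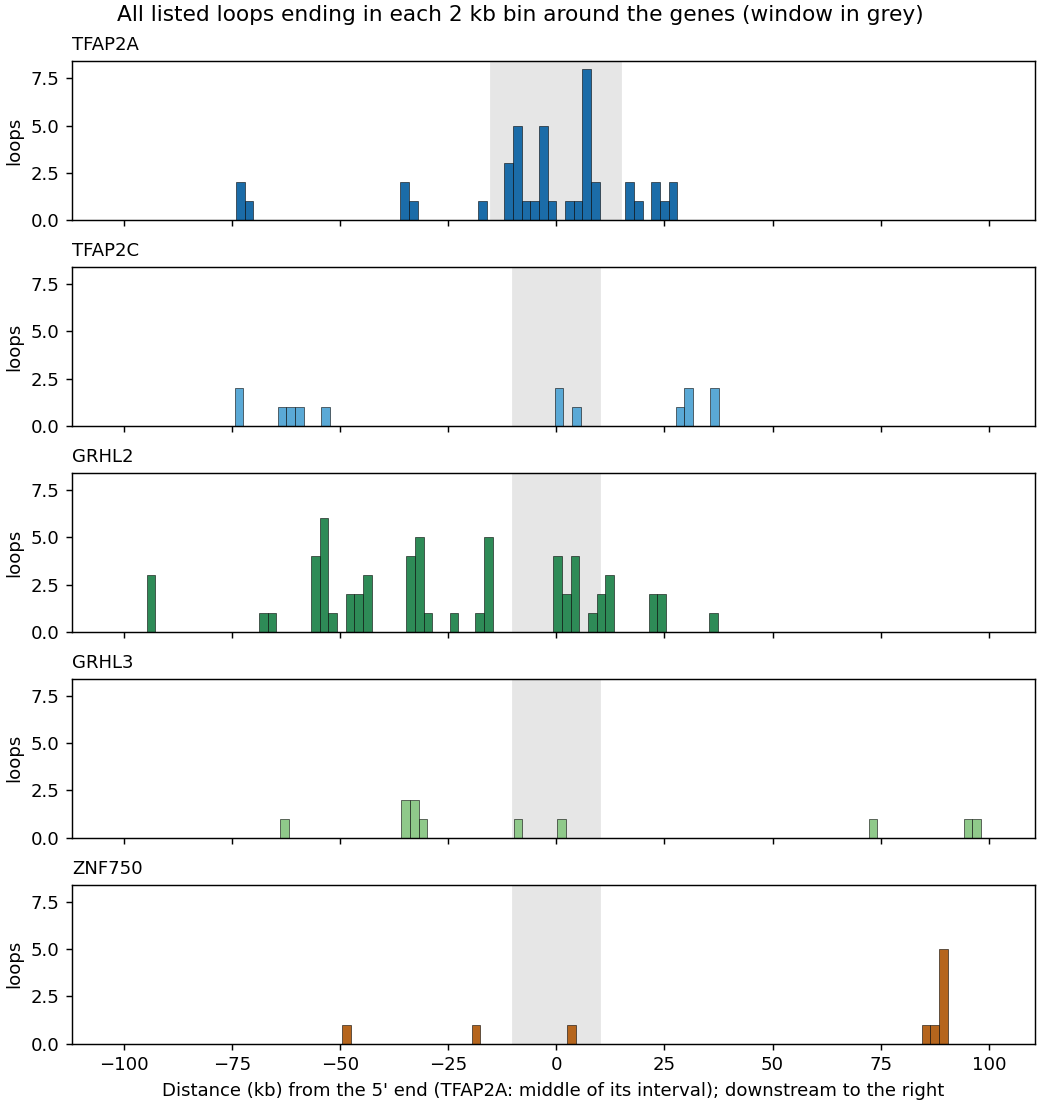
Number of all listed loops that end in each 2 kb bin (y) against the distance in kb from the 5′ end (for TFAP2A from the middle of its interval), with downstream to the right and the windows in grey. At TFAP2A the highest bars, 8, 5 and 5 loops, lie inside the window, whereas the highest bar around GRHL2, 6 loops, lies at -53.7 kb, on the upstream side, and that around ZNF750, 5 loops, lies 89.5 kb downstream.

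Loops in the wider surroundings ended at the genes to different degrees. In the 200 kb centred on each gene, 28 loops had an end around TFAP2A, and 25 of these (89.3%, interval 72.8 to 96.3%) had an end in its interval. Around GRHL2 there were 42, of which 13 (31.0%, 19.1 to 46.0%) had an end in its window. The intervals of these shares do not overlap, but the TFAP2A interval takes up more of its surroundings. Loops that share a bin need not be independent, and this difference was not tested. There were 11 loops around TFAP2C, 9 around GRHL3 and 9 around ZNF750. Loops also passed over the windows without ending in them, 24 at GRHL2, 9 at GRHL3, 8 at TFAP2C, 5 at TFAP2A and 2 at ZNF750. GRHL2 therefore lay in a region with many loops that do not end at it.

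The 3 loops of TFAP2C all ran downstream, the direction in which the gene on the plus strand is read. The bin from 55204001 to 55206000, which holds the 5′ end, was joined to the bins at 55232001 and 55384001, 28 and 180 kb away. The bin from 55208001 was joined to that at 55646001, 438 kb away. The last of these partner bins had 3 other loops and the other two had none. The next protein-coding gene downstream by order in RefSeq is BMP7, which encodes a bone morphogenetic protein, and the next upstream is FAM209B. TFAP2A, its paralog, had 25 loops over its wider interval of 30 kb and 22 over the central 20 kb, which is not centred on a 5′ end. Neither contact interval of TFAP2A overlaps that of TFAP2C, and this difference was not tested.

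GRHL3 had 1 loop on each side. The bin at 24636001, near the upstream edge of the window, was joined to that at 24612001 over 24 kb, and the bin from 24646001 to 24648000, next to the 5′ end, to that at 24718001 over 72 kb. No loop was listed at the bin of the 5′ end. The list keeps only called loops, so this need not mean that the bin had no contacts, and the next bin had only 1. The 5′ ends of GRHL3 in RefSeq, printed above, are 3683 bases apart. STPG1 and GRHL3-AS1 overlap GRHL3 in RefSeq, and the upstream neighbour is IFNLR1. GRHL2 and GRHL3 are also paralogs, with 13 and 2 contacts in windows of equal width. Their contact intervals, 6.92 to 22.2 and 0.242 to 7.22, overlap, and this difference was not tested.

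ZNF750 had the fewest. Its 1 loop joined the bin from 80794001 to 80796000, centred 3.45 kb downstream of the 5′ end, with the bin at 80478001, 316 kb downstream of this minus-strand gene. Its 5′ end lay in a bin with 0 listed loops, which need not mean 0 contacts, since the list keeps only called loops. The partner bin had no other loop and a coverage of 3. ZNF750 lies within TBCD, a gene for a tubulin folding cofactor, so a loop at this place cannot be told apart between these genes. Around ZNF750 the bin with the most loops, 5, lay 89.5 kb downstream, and none of them ended in the window.

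The list gives the coverage, in counts, of the first bin of each loop, the one at the lower position. It was highest at the genes with the most loops. At TFAP2A it was 76 in the bin at 10412001, 73 at 10418001, 39 at 10410001, 37 at 10402001, 31 at 10414001 and 9 at 10406001. At GRHL2 it was 61 in the bin of the 5′ end and 24 in that at 102508001. At TFAP2C it was 6 in the bin of the 5′ end and 9 at 55208001, and at GRHL3 it was 10 at 24646001. The median over all 21636 first bins was 12 (interquartile range 8 to 20), so 5 of the 6 bins of TFAP2A and both bins of GRHL2 lay above the upper quartile and those of TFAP2C and GRHL3 below the median. In the list, 99% of first bins had at most the coverage of the bin at 10412001 and 97.9% at most that of the GRHL2 5′ end, against 18.3% for that of TFAP2C. No coverage was listed for the bins of ZNF750.

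**Figure D5:**
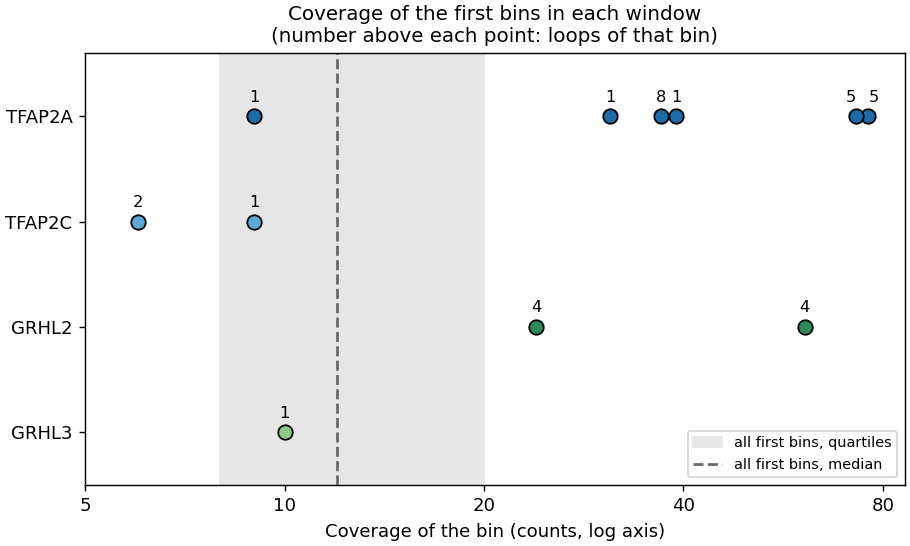
Coverage (x, counts, log axis) of the bins in each window that are first bins of a loop, by gene, with the number of loops of the bin above each point. The grey band and dashed line are the quartiles and the median of all first bins. Most TFAP2A bins and both GRHL2 bins lie above the band, the TFAP2C and GRHL3 bins lie below the median, and ZNF750 has none.

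Contacts were also set against coverage. A first bin is listed only where it has at least 1 contact, so a bin of low coverage has a high share by selection. The intervals of these shares take no account of this, so the shares describe the list only. Listed contacts made up a smaller part of the coverage at TFAP2A than over the whole list. The share of the list lay inside the intervals of the other genes with a value. Contacts were 11 of 265 counts (4.15%, interval 2.33 to 7.28%) over the first bins of TFAP2A and 3 of 85 (3.53%, 1.21 to 9.87%) over those of GRHL2. At TFAP2C they were 3 of 15 (20%, 7.05 to 45.2%) and at GRHL3 1 of 10 (10.0%, 1.79 to 40.4%). Over the list they were 9.14%, but this share fell with coverage, from 16.9% in first bins with 5 to 9 counts and 10.4% with 10 to 19 counts to 5.19% with 60 to 99 counts. The share of all bins with 60 to 99 counts lay inside the intervals of TFAP2A and GRHL2, and that of bins with 5 to 9 counts inside the interval of TFAP2C. The part of coverage in the order of the genes was not tested. Within 1 Mb of the genes, the median coverage of first bins was 13 at TFAP2A, 7 at TFAP2C, 14 at GRHL2, 13 at GRHL3 and 9 at ZNF750. The surroundings of TFAP2A and GRHL2 were thus near the median of the list, below most of the bins at these genes.

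Spans followed no common length. The median span was 36 kb at TFAP2A, 96 kb at GRHL2, 180 kb at TFAP2C and 48 kb at GRHL3, and the 1 loop of ZNF750 spanned 316 kb, whereas all loops had a median of 120 kb and quartiles of 36 and 398 kb. Spans under 50 kb, which 31% of all loops had, were found for 14 of the 25 TFAP2A loops, 3 of 13 at GRHL2, 1 of 3 at TFAP2C, 1 of 2 at GRHL3 and 0 of 1 at ZNF750. Since most loops rested on 1 contact, other loops between neighbouring bins were counted. Another loop with each end within 1 bin existed for 10 of the 44 loops (22.7%, interval 12.8 to 37.0%), 8 at TFAP2A and 2 at GRHL2, and for 14.1% of all loops. Of the 19 loops spanning 10 to 50 kb, 8 had one, beside 29.0% of all loops of that span, and of the 9 spanning 50 to 200 kb, 2 had one, beside 12.6%. It was 0 of the 10 loops spanning 200 to 1000 kb, beside 4.46%, and 0 of the 6 longer ones, beside 0.590%, shares at which few or none would be found among so few loops.

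The windows had loops just beyond their edges only in part. In the next 10 kb on either side, loops that do not end in the window numbered 5 upstream and 3 downstream of GRHL2, 1 upstream of ZNF750 and 0 at TFAP2A, TFAP2C and GRHL3.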

How the data were processed

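H3K27ac HiChIP was done in KYSE180 cells with a non-targeting siRNA, in 2 libraries. The authors processed reads with HiC-Pro on hg19 (per the submitters' processing notes), used FitHiChIP (Peak-To-All) to call active loops tied to p63 (the peaks used are not stated), and dropped loops unless both ends carried H3K27ac. Versions and thresholds are not given in the sources used here. The authors deposited 1 list for both libraries, with raw counts of contacts and, per first bin, a coverage signal. The columns have no names, and their meaning was taken from the order FitHiChIP uses. The depth of each library is unknown, since the list covers only bins with a loop, and the number of contacts sets the precision.

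Loops were selected by any overlap of a 2 kb bin with the gene window. Upstream and downstream follow the gene's strand in GENCODE 44. Windows of the same number of bins, at every 2 kb step, were counted over the list, and the count was tested on simulated data (30 of 30 settings equal to a plain count). Genes named are the 5 members at any value, their neighbours by order in RefSeq, and loops by contacts, span and bin. Members, lists and alternatives were chosen with earlier results of these data known. Genes at partner bins and other epithelial factors were not placed, because the annotation used here is on GRCh38, and protein identities were not computed. The alternatives were narrower and wider windows, at least 2 contacts, a span of at least 20 kb, midpoints, loops inside a window left out, and a background without chromosome Y, the mitochondrial sequence and clusters on chromosomes 10 and 16. Intervals came from scipy 1.17.1, tables from pandas 2.3.3 and numpy 2.4.6, and figures from matplotlib 3.10.9, under Python 3.11.15.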

Additional observations from a re-analysis of the deposited data

How the results depend on the processing

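Of 104 values recomputed for 21 results, 83 stayed within 1.5 times the reported value (for the share of loops with 2 or more contacts, within its interval) and 21 moved. For values that moved, the cause was not tested unless stated. With windows of 5 kb on either side, GRHL3 had 1 loop with 1 contact, as 100% of windows. With windows of 20 kb on either side, GRHL2 had 21 loops with 21 contacts, a median span of 60 kb and 2.26% of windows with as many loops, and ZNF750 had 2 loops with 2 contacts, a median span of 539 kb and 64.6% of windows. TFAP2A widened by 10 kb kept 25 loops, which 1.85% of windows had. With at least 2 contacts, TFAP2A had 1 loop, as 100% of windows, and TFAP2C, GRHL2, GRHL3 and ZNF750 had 0, which gives no share of windows. With a span of at least 20 kb, the median span at TFAP2A was 313 kb, 1.87% of windows had as many loops, and the share of loops with 2 or more contacts was 0%, since the 1 such loop spans 10 kb. Midpoints, loops inside a window left out and the reduced background moved no value past these limits. The 1 list for both libraries, with 43 of 44 loops on 1 contact, limits every count. No paired analysis was possible because the libraries are 1 condition pooled into 1 list. Leaving out a replicate was not possible either.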
